A study of Bos indicus with 11 samples.

Results

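The small leucine-rich proteoglycans are secreted proteins of the connective tissue, and the 8 genes described here are BGN (biglycan), DCN (decorin), ASPN (asporin), LUM (lumican), FMOD (fibromodulin), PRELP, OMD (osteomodulin) and OGN (osteoglycin). They were taken as the rows whose symbol equals one of these names, and 8 of 8 were found among the 24616 genes in the table. Of these, 7 had a mean of at least 5 normalized counts over the cows and were among the 15081 genes tested. OMD did not pass that filter. The rule used no measured value, but the members were chosen with earlier results of these data known.

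Each of these proteins carries a curved stretch of leucine-rich repeats that binds collagen, and together they set the width and spacing of collagen fibrils. Most carry a sugar chain on a serine (chondroitin or dermatan sulfate, as in decorin and biglycan) or on an asparagine (keratan sulfate, as in lumican and fibromodulin). Several also hold growth factors of the TGF-beta family in the matrix, and soluble biglycan and decorin can signal through Toll-like receptors. In the uterus they belong to the stroma and the muscle wall, both of which are remodelled over the cycle and in pregnancy.

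RNA was sequenced from uterine biopsies of 11 healthy multiparous Nelore cows (Bos indicus). All had been synchronized and inseminated at oestrus, and all were biopsied 6 days later in the horn opposite the corpus luteum. Pregnancy was diagnosed on day 30, and the biopsies were assigned afterwards to a group that became pregnant (P, 6 cows) and a group that did not (NP, 5 cows). The cows had been selected for similar progesterone at the biopsy, the groups are defined by the later outcome alone, and each cow is 1 replicate. A supplementary record of the study gives the opposite outcome for cow P617, which was kept in P as labelled.

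Values are normalized counts, that is reads per gene divided by a size factor for each cow, and 1 read was worth 0.784 to 1.14 normalized counts. Depth ranged from 9290949 to 13569085 reads on genes. Transcript lengths were not used here, so levels are compared between cows and not between genes. The use of strand in counting is not given in the sources used here, so values of overlapping genes are uncertain.

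The biopsies differed in how much muscle they held. The row shared by ACTG2 and ACTA2, the smooth muscle actins, had 28918.5, 72036 and 215006 normalized counts as the lowest, median and highest value in P and 17427, 89878, 22537, 43859.9 and 13869 in cows NP238, NP638, NP856, NP2541 and NP2810. Cows P617 (215006) and P1541 (165234) were the highest of all, and the groups overlapped (NP minus P -1.37 on the log2 scale, two-sided exact permutation test, p = 0.0801). All 10 smooth muscle rows were lower on average in NP, 2 of them (DES and MYH11) at an unadjusted p under 0.05, against 2.35% of all genes. The mean log2 level of 12 epithelial markers was lowest in P617 (6.95, against 9.25 to 10.9 in the other P cows and 9.66 to 10.1 in NP), and no marker of any cell type list that was found was at 0 in every cow. All 5 uterine identity genes were measured (HOXA10, HOXA11, PGR, ESR1 and EMX2). Because biopsies are mixtures, fewer cells of a type and less RNA per cell cannot be told apart.

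BGN, DCN and LUM had higher means in NP than in P, whereas FMOD, PRELP, OGN and ASPN differed by less than their spread among cows. With limma on log2(normalized count + 1) none of the 7 members tested had a Benjamini-Hochberg adjusted p under 0.1, and neither did any of the 15081 genes (0%). On recovered reads, limma-voom and edgeR (quasi-likelihood) called 0 of 7 as well, with 2 of 7 at an unadjusted p under 0.05 in each (against 7.78% of all genes with limma-voom and 7.63% with edgeR and TMM), and DESeq2 called 1. At an unadjusted p under 0.05, 3 of the 7 members were higher in NP and 0 were lower, against 5.49% higher and 2.35% lower among the genes as a whole. Log2 fold changes are given as NP over P, and their median was 0.21 for the 7 members and 0.0018 for all genes. For BGN and DCN the lowest NP cow exceeded the highest P cow, as was the case for 0.855% of the genes tested.

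**Figure D1:**
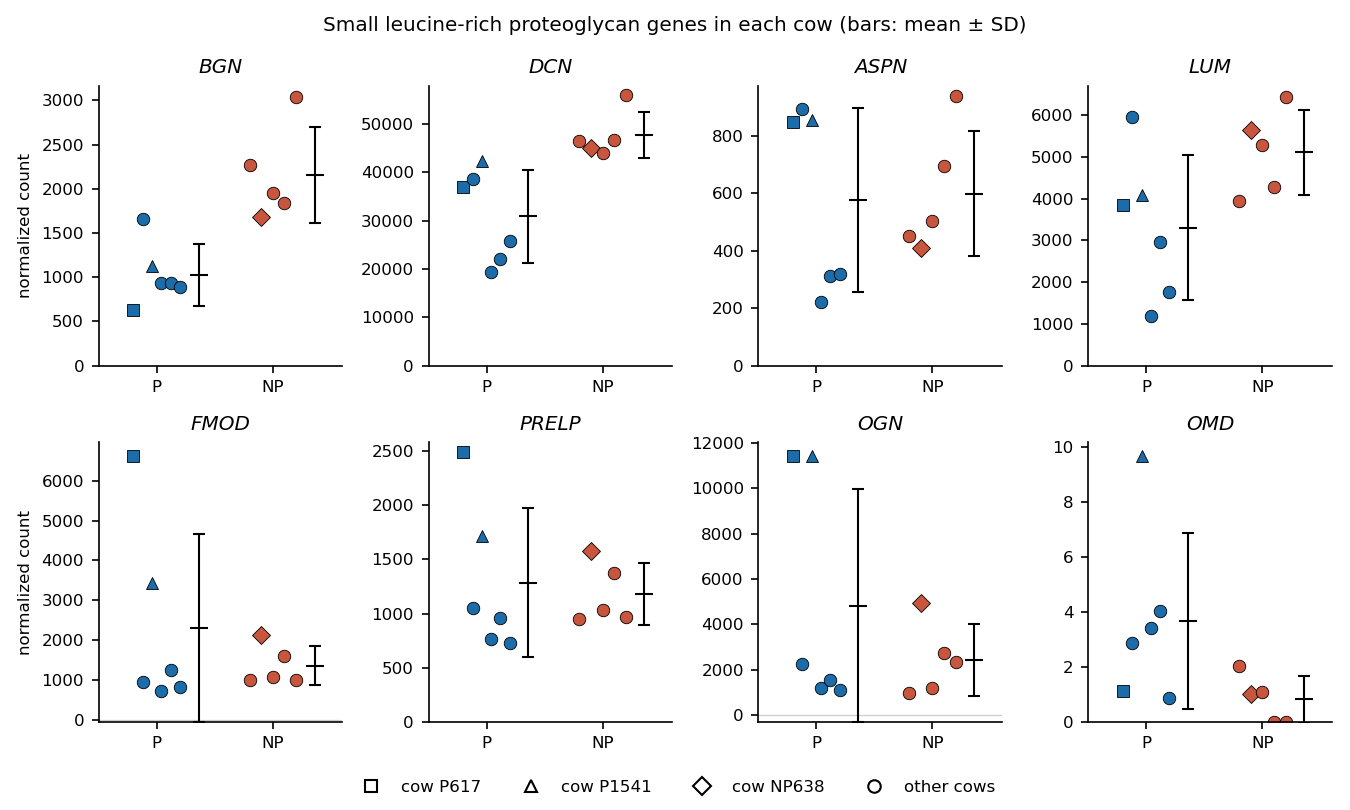
Normalized counts (linear axis) of the 8 small leucine-rich proteoglycan genes in the 6 P and 5 NP cows, 1 point per cow, with the mean ± SD of each group beside it. BGN and DCN show no overlap between the groups, while the highest FMOD, PRELP and OGN values belong to cow P617, followed by P1541.

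BGN encodes biglycan, which carries a pair of chondroitin or dermatan sulfate chains and is found close to cells as well as on fibrils. Its lowest, median and highest value in P was 627, 931 and 1660 normalized counts, and cows NP238, NP638, NP856, NP2541 and NP2810 had 2268, 1682, 1954, 1837 and 3042. The highest P cow, P904, lay just under the lowest NP cow, NP638. The means were 1029 ± 349 (SD, n = 6) in P and 2157 ± 539 (SD, n = 5) in NP. The log2 fold change was 1.10 (SE 0.23, limma unadjusted p = 0.000475, adjusted p = 0.259). DESeq2 on the recovered reads gave a log2 fold change of 1.07 with an adjusted p of 0.0110, and BGN was the only member it called, against 1.33% of all genes tested. With the actin row as a covariate in DESeq2 that call was lost (0.72, adjusted p = 0.198), and 0 of 7 members were called against 0.603% of all genes. Without cow P904, the highest of its group, limma called BGN (1.25, adjusted p = 0.0344), where 1.13% of all genes were called. Leaving out the P cow nearest to NP had to widen the difference. Without any other single cow limma did not call BGN (adjusted p = 0.185 to 0.568). Over all alternatives the adjusted p of BGN ran from 0.0110 to 1 and its log2 fold change from 0.60 to 1.25, always higher in NP.

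DCN encodes decorin, with a single such chain, which coats collagen fibrils and limits their sideways fusion. The P cows had 19394, 31342 and 42337.5 normalized counts as the lowest, median and highest value, and cows NP238, NP638, NP856, NP2541 and NP2810 had 46439.8, 45058, 44069, 46724.5 and 56019. The NP cows other than NP2810 lay within a narrow band, whereas P fell into a lower set (P1631, P1753 and P2396) and a higher set (P617, P904 and P1541) close under NP. The log2 fold change was 0.68 (SE 0.27, limma unadjusted p = 0.0281, adjusted p = 0.554), with means of 30870 ± 9631 (SD, n = 6) and 47662 ± 4793 (SD, n = 5). The adjusted p of DCN was between 0.194 and 1 over all alternatives and was under 0.1 in none of them.

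ASPN encodes asporin, which lacks the sugar chain of decorin and competes with it for collagen. In P it had 223, 583 and 894 normalized counts as the lowest, median and highest value, and in cows NP238, NP638, NP856, NP2541 and NP2810 it had 450.1, 409.9, 503, 693 and 937. The P cows again formed a lower set of P1631, P1753 and P2396 (223 to 319) and a higher set of P617, P904 and P1541 (847 to 894), and the NP cows other than NP2810 lay between them. The log2 fold change was 0.21 (SE 0.41, limma adjusted p = 0.920).

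LUM encodes lumican, a keratan sulfate proteoglycan that binds collagen at a site it shares with fibromodulin. It had 1181, 3403 and 5962 normalized counts as the lowest, median and highest value in P, and 3937.5, 5643, 5276, 4277 and 6433 in cows NP238, NP638, NP856, NP2541 and NP2810. P904 (5962) lay above 4 of the 5 NP cows, so the groups overlapped, and P1631 (1181) and P2396 (1769) were the lowest. The log2 fold change was 0.80 (SE 0.36, limma unadjusted p = 0.0492, adjusted p = 0.637). With edgeR's quasi-likelihood test on the recovered reads the difference was 0.64 (unadjusted p = 0.0928).

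FMOD encodes fibromodulin, which binds fibrils at an early stage of their growth and guides cross-linking by lysyl oxidase. It ranged from 721 to 6627 normalized counts in P, with a median of 1109.7, and was 1012, 2122, 1085, 1615 and 1007 in cows NP238, NP638, NP856, NP2541 and NP2810. The P mean of 2307 ± 2348 (SD, n = 6) rested on P617 (6627) and P1541 (3448), and the other P cows had at most 1262. The log2 fold change was -0.29 (SE 0.54, limma adjusted p = 0.917) and became 0.12 without P617.

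PRELP, a proteoglycan with a heparin-binding arginine- and proline-rich end that links collagen to basement membranes, showed the same order at the top. It had 732, 1004.5 and 2485 normalized counts as the lowest, median and highest value in P and 946, 1581, 1031, 1371 and 967 in cows NP238, NP638, NP856, NP2541 and NP2810. P617 (2485) and P1541 (1719) exceeded every NP cow, and the 4 other P cows had between 732 and 1055. The log2 fold change was -0.01 (SE 0.31, limma adjusted p = 0.998).

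OGN encodes osteoglycin, also called mimecan, a class III member that affects fibril width. The P cows had 1089.6, 1908 and 11451 normalized counts as the lowest, median and highest value, and cows NP238, NP638, NP856, NP2541 and NP2810 had 954, 4937, 1213, 2741 and 2330.2. P617 (11451) and P1541 (11423) stood far above the other P cows, whose highest value was 2252 in P904. With a log2 fold change of -0.50 (SE 0.71, limma adjusted p = 0.888) the difference was smaller than the spread among cows. Without P617 and P1541 it was 0.49 (SE 0.44, unadjusted p = 0.291), in the opposite direction.

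OMD, the keratan sulfate proteoglycan osteomodulin of bone and tooth, was near the limit of detection. It had at most 10 reads in a cow (P1541, 9.68 normalized counts), 1 to 4 reads in the other P cows, 2, 1 and 1 reads in cows NP238, NP638 and NP856, and no read in NP2541 and NP2810. A count of 0 allows up to 3 reads, so the groups could not be told apart for it at this depth and no fold is given. The unfiltered limma fit gave OMD an unadjusted p of 0.0229 and an adjusted p of 0.575. In the gene order of another cattle assembly (NIAB-ARS_B.indTharparkar, used for order only) OMD lies between OGN and ASPN, of which OGN had at least 954 and ASPN at least 223 normalized counts in each cow. KERA, LUM and DCN also follow each other there, and FMOD lies beside PRELP.

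The members were then related to muscle content, measured as the ACTG2; ACTA2 row, over the 11 cows. Of the 8 members, 4 had a Pearson correlation with this row at an adjusted permutation p under 0.05 (100000 resamples, adjusted over the 8 members), 3 of them positive and 1 negative. The share of all genes correlated with this row was not computed. In the limma fit of the slope on actin given below, 26.9% of all genes had an unadjusted p under 0.05. FMOD (r = 0.79, rho = 0.66, adjusted permutation p = 0.0210 and 0.122), OGN (0.74, 0.62, adjusted p = 0.0238 and 0.127) and PRELP (0.68, 0.55, adjusted p = 0.0450 and 0.175) were higher in cows with more actin reads. BGN was lower in them (r = -0.79, rho = -0.74, adjusted permutation p = 0.0218 and 0.107). DCN (r = -0.26, rho = -0.44), LUM (-0.18, -0.37), ASPN (0.04, -0.17) and OMD (0.37, 0.31) had no correlation past the threshold. The rank correlations did not pass it for any member.

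The positive correlations were smaller without P617 and P1541, the cows farthest from the median of the actin row, and did not pass the threshold there. Over the other 9 cows r was 0.43 for FMOD, 0.32 for OGN and 0.22 for PRELP, and their adjusted exact permutation p-values were 0.496, 0.529 and 0.598. BGN had r = -0.71 there (unadjusted p = 0.0340 and adjusted p = 0.272, exact permutation test). No gap between neighbouring cows on the actin scale exceeded 0.878 log2 units, so the cows were not split into clusters. Because the actin row was lower on average in NP, the slope on actin was also fitted beside the outcome group.

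In that fit FMOD was higher by 0.77 (SE 0.14), OGN by 0.91 (SE 0.23) and PRELP by 0.40 (SE 0.09) log2 units per log2 unit of the actin row, with limma adjusted p-values of 0.0128, 0.0456 and 0.0360. BGN had a slope of -0.26 (SE 0.08, adjusted p = 0.0999), just inside the threshold of 0.1. These 4 of the 7 members compare with 7.15% of all genes tested with a positive slope and 4.26% with a negative slope past the same threshold. DCN (0.08), LUM (0.10) and ASPN (0.10) had slopes within 1 SE of 0. Without P617 and P1541 the slopes were 0.38 (SE 0.09) for FMOD, 0.43 (SE 0.23) for OGN, 0.20 (SE 0.09) for PRELP and -0.30 (SE 0.09) for BGN, and none passed the threshold (adjusted p = 0.106, 0.616, 0.528 and 0.263), where 1.83% of all genes did. The slope of FMOD was still over 4 SE from 0 there (unadjusted p = 0.00202), beside outcome.

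**Figure D2:**
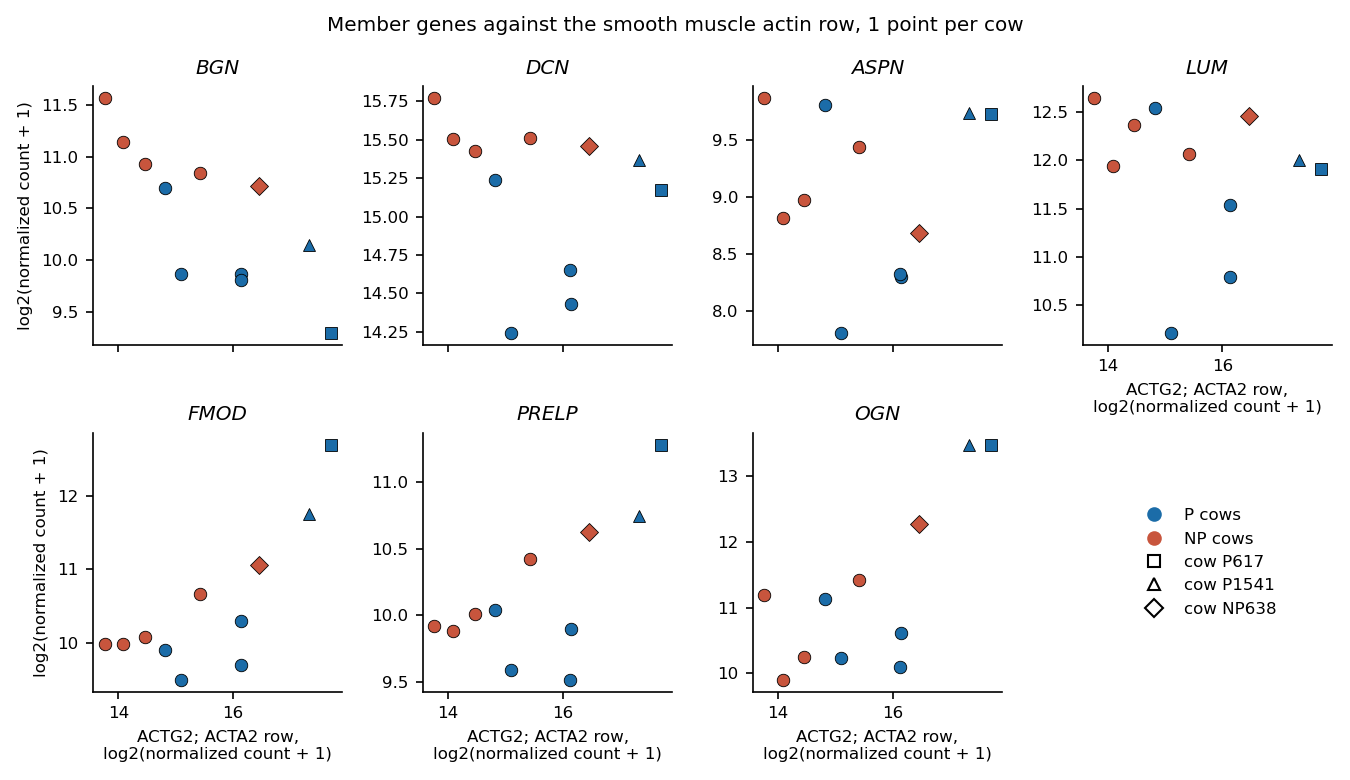
Each of the 7 tested members, log2(normalized count + 1), against the ACTG2; ACTA2 row on the same scale, with 1 point per cow coloured by outcome. FMOD, PRELP and OGN are highest in P617 and P1541 at the muscle-rich end, BGN is lowest in P617, and DCN, LUM and ASPN show no single trend.

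With the actin row as a covariate all 7 members had a positive log2 fold change, NP over P. The values were 0.75 for BGN (SE 0.21, unadjusted p = 0.00416), 0.79 for DCN (SE 0.29, unadjusted p = 0.0185), 0.94 for LUM (SE 0.44, unadjusted p = 0.0560) and 0.35 for ASPN (SE 0.50). FMOD moved from -0.29 to 0.76 (SE 0.36, unadjusted p = 0.0565), OGN from -0.50 to 0.75 (SE 0.56, unadjusted p = 0.212) and PRELP from -0.01 to 0.54 (SE 0.23, unadjusted p = 0.0396). Thus 3 of the 7 members were higher in NP at an unadjusted p under 0.05, against 4.16% of all genes in that fit, and 0 of 7 had an adjusted p under 0.1 (0% of all genes). The median of the members was 0.75.

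Without P617 alone, the cow with the disputed record, the log2 fold changes were 0.97 for BGN, 0.75 for DCN and 0.88 for LUM (limma adjusted p = 0.185, 0.422 and 0.521). Leaving out P617 and P1541 in place of the covariate put all 7 members above 0. Both were the highest P cows for FMOD, PRELP and OGN, so leaving them out had to raise the values of these genes. The log2 fold changes were then 0.99 for BGN (SE 0.22), 0.89 for DCN (SE 0.23), 1.03 for LUM (SE 0.39), 0.60 for ASPN (SE 0.38), 0.50 for FMOD (SE 0.25), 0.41 for PRELP (SE 0.18) and 0.49 for OGN (SE 0.44). BGN, DCN, LUM and PRELP had unadjusted p-values under 0.05 (0.00110, 0.00299, 0.0247 and 0.0451), against 7.14% of all genes that were higher in NP at that level. The smallest adjusted p among the members was 0.149, for BGN, so 0 of 7 were called against 0.113% of all genes. Markers of other cells moved with outcome too. Over all cows, 8 of 8 endothelial markers were higher in NP at an unadjusted p under 0.05. So were 3 of 5 pericyte (PDGFRB, ABCC9 and RGS5) and 4 of 7 leukocyte markers (CD14, CD68, CSF1R and PTPRC). The same held for 1 of 6 stromal fibroblast markers (FBLN1), against 5.49% of all genes. Mesothelial MSLN was lower (1 of 4 mesothelial markers, median -1.39), against 2.35%. With the actin row as a covariate, 2 of 8 endothelial, 2 of 5 pericyte and 1 of 7 leukocyte markers were higher at an unadjusted p under 0.05. Of the fibroblast markers 5 of 6 were higher at that level in that fit (median 0.66), against 4.16% of all genes. Whatever their p, 8 of 8 endothelial, 5 of 5 pericyte, 6 of 7 leukocyte and 6 of 6 fibroblast markers had a positive log2 fold change there. Without P617 and P1541 the markers higher at that level were 7 of 8 endothelial, 5 of 5 pericyte, 2 of 7 leukocyte and 4 of 6 fibroblast (fibroblast median 0.58), against 7.14%. Of the 12 epithelial markers 11 had a higher mean in NP over all cows, none at that level. Without P617 and P1541 all 12 were lower (median -0.47), 3 of them at that level (KRT8, FOXA2 and ELF3), against 4.01% of all genes. The part of these cells in the differences of the members was not tested. The range of the summed endothelial markers was 3561 to 10063 normalized counts in P and 6781 to 12347 in NP, that of the pericyte markers 2834.5 to 6372 and 6109.6 to 7321, that of the leukocyte markers 437 to 966 and 736 to 1500.5, and that of the fibroblast markers 13742 to 35978 and 23702 to 32401.

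**Figure D3:**
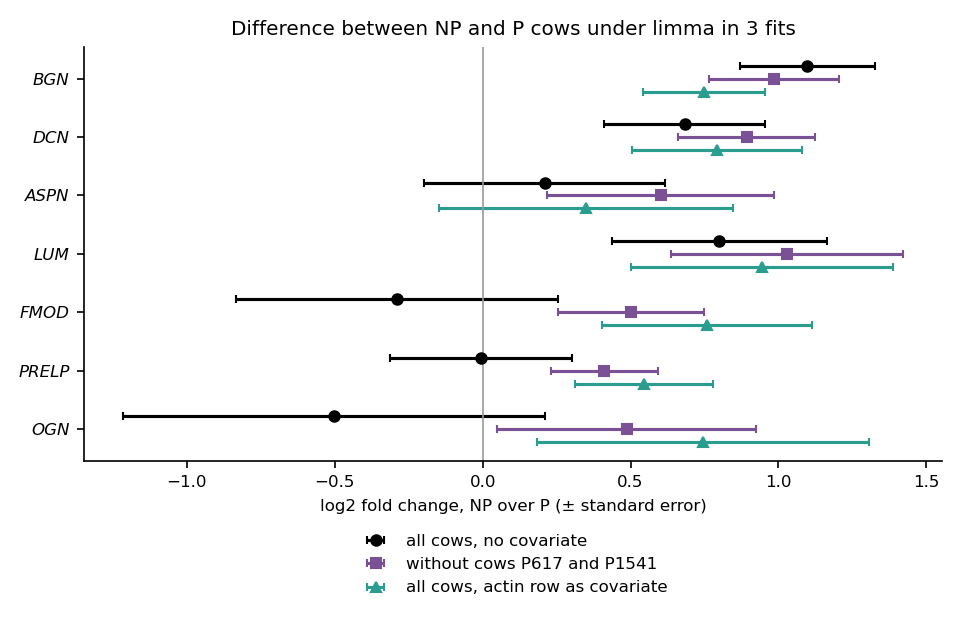
Log2 fold changes, NP over P, with standard errors for the 7 tested members in 3 limma fits: all cows, without cows P617 and P1541, and all cows with the actin row as a covariate. BGN, DCN and LUM stay on the right of 0 in each fit, and FMOD, PRELP and OGN move from the left of 0 to the right.

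Members also varied with each other, but the share of all gene pairs with a high r was not computed. Each tested member had a higher r over the 11 cows with genes outside the family, given below, than with another member. Over the 11 cows FMOD, PRELP and OGN formed a tight set, with r = 0.97 for FMOD and PRELP (rho = 0.85) and 0.92 for OGN with each of them (rho = 0.93 with PRELP and 0.79 with FMOD), and adjusted permutation p-values for r of at most 0.000770 over the 21 pairs. DCN correlated with LUM (r = 0.87, rho = 0.75, adjusted permutation p = 0.00556 and 0.0397), and so did ASPN with LUM (r = 0.77, rho = 0.75, adjusted p = 0.0153 and 0.0397). ASPN and DCN had r = 0.76 and rho = 0.58 (adjusted permutation p = 0.0231 and 0.167). BGN correlated with DCN (r = 0.73, rho = 0.86, adjusted permutation p = 0.0329 and 0.0106), and its r with FMOD, OGN and PRELP was -0.41, -0.30 and -0.24. Without P617 and P1541, r was 0.93 for FMOD and PRELP, 0.85 for OGN and PRELP, 0.79 for FMOD and OGN, 0.87 for DCN and LUM, 0.84 for LUM and ASPN, and 0.95 for BGN and DCN. For BGN, DCN, LUM and ASPN, a set put together after these values were seen, r over those 9 cows was 0.80 to 0.95 in all pairs. Leaving out, in each pair, the cows farthest from the median gave r = 0.86 for BGN and DCN, 0.83 for DCN and LUM, 0.45 for LUM and ASPN, and 0.93 for FMOD and PRELP.

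Ratios between members within a cow do not depend on its size factor. The log2 ratio of FMOD to LUM had a lowest, median and highest value of -2.64, -0.90 and 0.79 in P and was -1.96, -1.41, -2.28, -1.40 and -2.67 in cows NP238, NP638, NP856, NP2541 and NP2810. The P cows other than P904 lay above all NP cows, P904 (-2.64) was near the lowest, and the difference, NP minus P, was -1.09 (exact permutation test, p = 0.0801, adjusted over 3 ratios 0.149). Without P904 it was -1.45 with an adjusted exact permutation p of 0.0238. Leaving out this cow, the only P cow within the NP range, separates the groups, so a small p had to follow. Without any other single cow the adjusted exact permutation p was 0.127 to 0.267. FMOD and LUM share a collagen site, and the ratio was highest in P617 (0.79) and P1541 (-0.25), the cows with the most actin reads.

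BGN to DCN had a lowest, median and highest log2 ratio of -5.88, -4.71 and -4.38 in P and was -4.36, -4.74, -4.49, -4.67 and -4.20 in the NP cows in the same order. P617 and P1541 (-5.23) were the lowest, the groups otherwise overlapped, and the difference was 0.41 (exact permutation p = 0.152, adjusted 0.152). For ASPN to DCN the P cows had -6.44, -5.88 and -5.43 (lowest, median and highest) and the NP cows -6.69, -6.78, -6.45, -6.07 and -5.90, a difference of -0.47 (exact permutation p = 0.0996, adjusted 0.149). P617, P904 and P1541 lay above every NP cow for this ratio, and the other P cows lay among them. Over all 11 cows no ratio had an exact permutation p under 0.05, before or after adjustment.

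**Figure D4:**
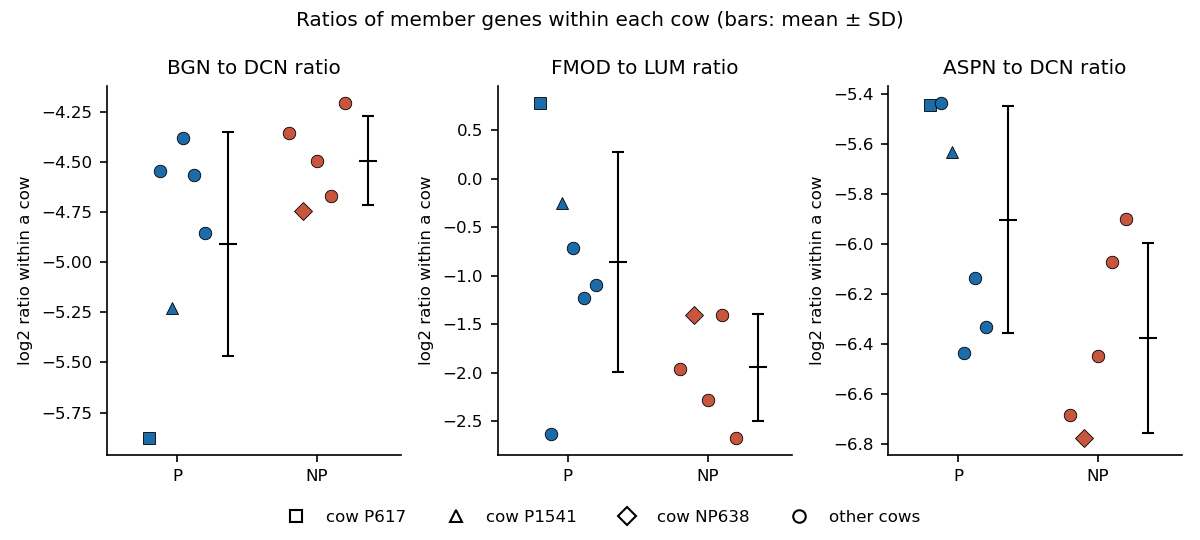
Log2 ratios of BGN to DCN, FMOD to LUM and ASPN to DCN within each cow, with the mean ± SD of the P and NP groups. The FMOD to LUM ratio is lower in NP than in 5 of the 6 P cows, with P904 the exception, and the other ratios overlap.

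Of the other small leucine-rich proteoglycan genes, 7 were found and 5 tested, all with a positive log2 fold change (median 0.55). At an unadjusted p under 0.05, 2 of them were higher in NP, against 5.49% of all genes. With the actin row as a covariate 4 of 5 were positive (lowest -0.095) and 1 was higher at that level, against 4.16% of all genes. Without P617 and P1541, 4 of 5 were positive (lowest -0.024) and 1 was higher at that level, against 7.14%. PODN (podocan, which binds collagen and slows smooth muscle growth) ran from 237 to 664 normalized counts in P (median 473) and was 1161, 666, 825, 837 and 781 in cows NP238, NP638, NP856, NP2541 and NP2810. The groups did not overlap, although P1631 lay just under NP638, and the log2 fold change was 1.01 (SE 0.25, limma unadjusted p = 0.00155, adjusted p = 0.264). Like BGN, PODN had a negative slope on the actin row (-0.29, SE 0.09, limma adjusted p = 0.0781). So did TSKU (-0.16, SE 0.05, limma adjusted p = 0.0859), and 4.26% of all genes had a negative slope past that threshold. Without P617 and P1541 the slopes of PODN and TSKU were -0.15 and -0.11 (limma adjusted p = 0.664 and 0.669).

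KERA (keratocan, best known from the cornea) varied widely, from 6.78 in P617 to 395 in P904 among the P cows and 156, 127, 359, 369 and 419 in the NP cows, with a log2 fold change of 1.997 (SE 0.88, limma unadjusted p = 0.0439, adjusted p = 0.615). The neighbour of ASPN, ECM2, had 5509 normalized counts in P1541 and 2074 to 3081 in the other P cows, with a log2 fold change of 0.12. TSKU, an inhibitor of TGF-beta and WNT signals, and CHAD (chondroadherin) had log2 fold changes of 0.13 and 0.55 with unadjusted p-values of 0.385 and 0.240. EPYC had at most 1 read and OPTC at most 11 reads in a cow, and both stayed under the filter.

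By the highest Pearson r over the 11 cows, given as a description, the genes nearest to BGN were BMP4 (0.97), P4HA3 (0.97) and TRPV2 (0.97). Nearest to DCN were PTPN12 (0.95), ABCC9 (0.95) and IGFBP2 (0.95), and nearest to LUM were TGFBI (0.95), KCNJ8 (0.95) and TGFB1 (0.95). ABCC9 and KCNJ8 encode the subunits of a potassium channel and were also in the pericyte list. FMOD was nearest to KCTD15 (0.99), GLIPR2 (0.99) and ANXA6 (0.98), PRELP to SFXN3 (0.98), IGFBP4 (0.98) and RBMS1 (0.97), OGN to the 2 rows that carry the symbol GNG11 (0.98 and 0.97) and to TSC22D1 (0.97), and ASPN to HOXD9 (0.94), FAM89A (0.93) and TAF7 (0.93). Over the 9 cows without P617 and P1541 the same r values were between 0.90 and 0.98.

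Earlier results of these data were known when the lists of genes that build, bind and cut these proteoglycans were drawn up. The 7 lists held 111 tested genes. At an unadjusted p under 0.05, 19 of them were higher in NP and 2 lower (21 of 111, against 7.84% of all genes in either direction), and 0 had an adjusted p under 0.1. Apart from TGFB2, the genes named from these lists had limma adjusted p-values from 0.264 to 0.589.

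Of the 24 and 8 tested enzymes that make the 2 kinds of sugar chain, 3 had an unadjusted p under 0.05, against 7.84% of all genes. Among 24 genes for chondroitin and dermatan sulfate synthesis only CHSY3, a chondroitin synthase, had an unadjusted p under 0.05 (11.01 ± 8.68 SD in P, 33.1 ± 16.7 SD in NP, log2 fold change 1.74, unadjusted p = 0.00850), and the median of the list was 0.08. Among 8 keratan sulfate genes the sulfotransferase CHST1 was higher in NP (0.97, unadjusted p = 0.00999) and CHST4 lower (-1.50, unadjusted p = 0.0188), with a list median of 0.24. Without P617 and P1541, 5 of the 24 and 3 of the 8 genes were at that level, against 11.1% of all genes.

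Collagens, the main ligands, had a median log2 fold change of 0.29 over 12 genes, with COL5A2 alone at an unadjusted p under 0.05 (0.79, unadjusted p = 0.0222). With the actin row as a covariate, 8 of the 12 were higher in NP at that level, against 4.16% of all genes. Without P617 and P1541, 8 were also higher, against 7.14% of all genes, and the list medians were 0.87 and 0.77. Of 19 collagen processing and cross-linking genes, 4 were higher in NP at that level over all cows, against 5.49% of all genes. These were the prolyl hydroxylase P4HA3 (1.51, unadjusted p = 0.00376), the procollagen protease ADAMTS2 (0.77, unadjusted p = 0.00565), lysyl oxidase LOX (0.54, unadjusted p = 0.0347) and PCOLCE2, an enhancer of procollagen cleavage (1.51, unadjusted p = 0.0365).

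Among 21 ligands and receptors, 5 were higher and 1 lower in NP at an unadjusted p under 0.05, with a median of 0.18. Of all genes 5.49% were higher and 2.35% lower at that level. The receptor TGFBR2 (0.82, unadjusted p = 0.00110), BMP4 (1.00, unadjusted p = 0.00303), the Toll-like receptor partner CD14 (0.84, unadjusted p = 0.00542) and fibrillin FBN1 (0.49, unadjusted p = 0.00691) had the smallest p-values. TGFB1 (0.67, unadjusted p = 0.0217, adjusted 0.514) and TGFB2, the member that was lower (-0.44, unadjusted p = 0.0409, adjusted 0.607), made up the rest and were named after their values were seen. CD14 was also in the leukocyte list. Of 7 proteases known to cleave these proteoglycans, 4 were higher in NP at that level, against 5.49% of all genes. These were ADAMTS1 (0.87, unadjusted p = 0.00211), MMP14 (0.66, unadjusted p = 0.0107), ADAMTS4 (0.94, unadjusted p = 0.0150) and MMP2 (0.84, unadjusted p = 0.0191). All 7 had positive values over all cows without a covariate (median 0.74). With the actin row as a covariate 5 of 7 were positive (lowest -0.48), and without P617 and P1541 6 of 7 (lowest -0.31).

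Other proteoglycans had a median of 0.25 over 20 genes. AGRN (agrin, of basement membranes, 0.55, unadjusted p = 0.00120), SRGN (serglycin, of blood cell granules, 0.69, unadjusted p = 0.0151) and GPC2 (a glypican, 1.23, unadjusted p = 0.0215) were higher in NP at that level. These 3 of 20 compare with 5.49% of all genes. The adjusted p was 0.264 for AGRN, 0.482 for SRGN and 0.514 for GPC2.

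With the actin row as a covariate, several of the genes named from these lists no longer had an unadjusted p under 0.05. These were PCOLCE2 (log2 fold change 0.38, unadjusted p = 0.462), CHST1 (0.54, unadjusted p = 0.112), CHSY3 (1.34, unadjusted p = 0.0622), ADAMTS4 (0.76, unadjusted p = 0.0812), SRGN (0.46, unadjusted p = 0.118) and GPC2 (0.88, unadjusted p = 0.136). BMP4 (0.56, unadjusted p = 0.0316) and P4HA3 (0.85, unadjusted p = 0.0430), both among the genes nearest to BGN, had smaller differences than without it. So did TGFBR2 (0.73), CD14 (0.68) and AGRN (0.44). Differences were larger with the covariate for COL5A2 (1.16), ADAMTS1 (1.07), MMP2 (1.02), ADAMTS2 (0.86), LOX (0.75), MMP14 (0.72), FBN1 (0.61) and CHST4 (-1.95). Genes of the 7 lists at an unadjusted p under 0.05 numbered 32 with it (5.66% of all genes) and 21 without it (7.84%).

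**Figure D5:**
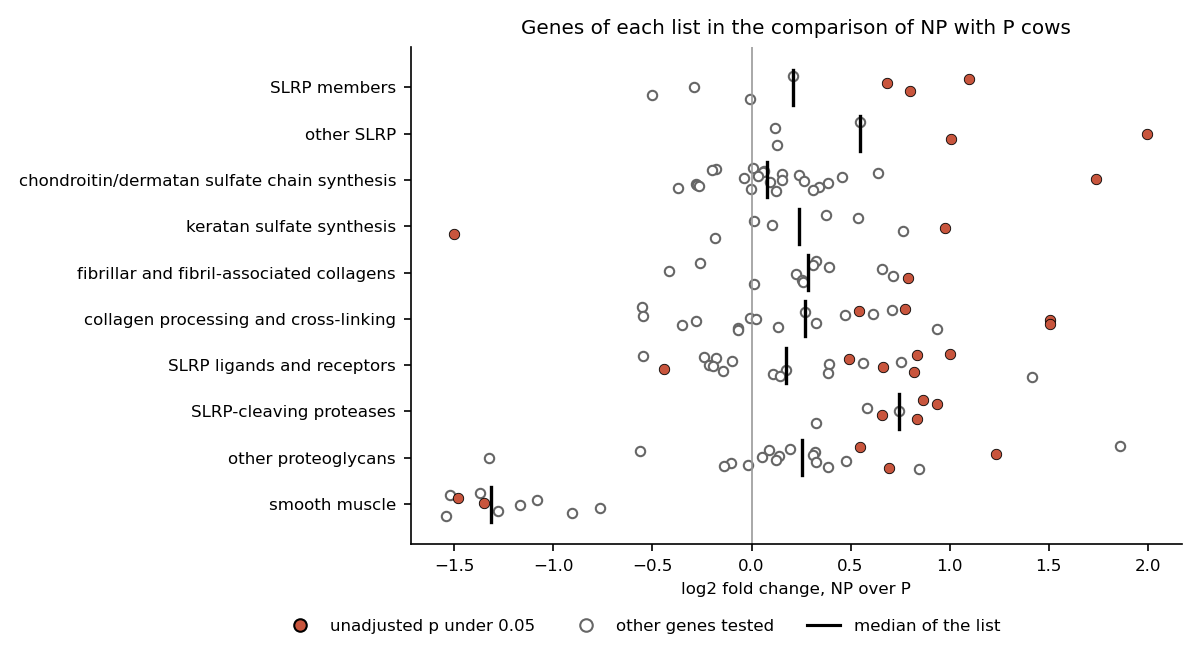
Log2 fold changes, NP over P, of the genes tested in each list over all cows without a covariate, with filled points for an unadjusted p under 0.05 and a bar at the median of the list. All 7 proteases lie on the right of 0 (median 0.74), all 10 smooth muscle rows on the left, and the members spread from -0.50 (OGN) to 1.10 (BGN).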

How the data were processed

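Endometrial RNA from 6 P and 5 NP cows was analysed, with groups taken from the sample labels. According to the methods and processing notes, the authors mapped filtered paired-end reads with Bowtie2 (2.1.0) to UMD3.1, counted them with HTSeq (0.5.4p2) and normalized them with DESeq2 (1.12.1). The deposited table holds this signal, 1 normalized count per gene and cow. The gene annotation and the use of strand are not given in the sources used here. In 100% of the values the signal was a whole multiple of 1 read (tolerance 0.01), so reads were recovered. A value of a few reads carries a large counting error, and a count of 0 allows up to 3 reads.

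Genes with a mean of at least 5 were compared with limma 3.58.1 (trend) in R 4.3.3 on log2(normalized count + 1), with the Benjamini-Hochberg adjustment over all 15081 genes and a threshold of 0.1. Fold changes understate those of low genes because of the pseudocount. Alternatives were edgeR 4.0.16, DESeq2 1.42.0 and limma-voom on recovered reads, other normalizations, filters and pseudocounts, actin or the smooth muscle mean as a covariate, and leaving out cows. Ratios within cows were tested by two-sided exact permutation over the 462 splits of the cows, whose smallest p is 0.00216, and correlations with permutation tests. P-values measure the spread among cows. The fits were tested on simulated data.

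The genes named were all 8 members, the other members of the family that were measured, up to 4 genes with the smallest unadjusted p under 0.05 in each list, and the 3 genes nearest to each member by Pearson r. The members and lists were chosen with earlier results of these data known. Coordinates and sequences were not used here.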

Additional observations from a re-analysis of the deposited data

Results flagged for a closer look

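Among 76 groups of cows examined for a sample far from the others, 9 were picked out, and chance picks about 1 in 20. Among the members, DCN was high in NP2810 (56019 normalized counts, against 46724.5 in the next NP cow) and OMD was high in P1541 (9.68, that is 10 reads, against 4.03 in the next P cow). ECM2 was also high in P1541 (5509, next 3081). EPYC in NP2541 (0.784) was the single read of its group. In NP2810, CHSY3 stood out at 62.2 (next 30.3), and so did MMP2 at 19975 (next 12553). In P904, P4HA3 was 2440 (next 1018) and SRGN 583 (next 308). ADAMTS2 was low in NP2541 (528, next 740.0).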

How the results depend on the processing

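No paired analysis was possible because the cows carry different numbers in the groups. The log2 fold changes of BGN, DCN and LUM kept their direction under every alternative. Members with an adjusted p under 0.1 numbered 0 except with DESeq2 without a covariate (1, BGN, and 0 with the actin covariate), and from 0 to 1 with single cows left out (1 without P904). Members with an unadjusted p under 0.05 numbered from 1 to 3 with single cows left out (5.66% to 10.3% of all genes), with 1 of 7 without P1631, P1753, P2396 or NP2810.

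The direction of FMOD, OGN and PRELP changed between settings. Log2 fold changes opposite to those over all cows without a covariate were, for OGN, FMOD and PRELP in that order: 0.49, 0.50 and 0.41 without P617 and P1541; 0.17, 0.33 and 0.30 without NP638 as well; 0.75, 0.76 and 0.54 with the actin covariate; 0.67, 0.66 and 0.49 with the smooth muscle mean as covariate; 0.79, 0.77 and 0.55 with the actin covariate without P617 and P1541; 0.22, 0.69 and 0.42 with it and without all 3 cows; 0.57, 0.74 and 0.50 with DESeq2 and the actin covariate; and 0.58, 0.75 and 0.51 with edgeR and the actin covariate. PRELP, at -0.01, was also on the other side of 0 with limma-voom (0.0032), TMM (0.0062) and upper-quartile scaling (0.013). The fits that combine a covariate with other choices were added after seeing the data. With each cow left out, FMOD ran from -0.52 to 0.12, OGN from -0.82 to -0.11, PRELP from -0.14 to 0.21 and ASPN from -0.019 (without P1631) to 0.38.

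The 21 genes of the 7 lists with an unadjusted p under 0.05 (7.84% of all genes) became 47 without P617 and P1541 (11.1% of all genes), 41 without NP638 as well (10.2%), 32 with the actin covariate (5.66%), 39 with it and without P617 and P1541 (10.3%), 32 with DESeq2 and the actin covariate (6.52%), and 15 to 27 with each cow left out (5.66% to 10.3%).

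The 4 members correlated with the actin row became 0 without P617 and P1541 and 0 without NP638 as well, where r was -0.070 for OGN and -0.20 for PRELP, and 0 to 4 with each cow left out (0 without P617, 1 without P1541, and 2 without NP238, NP856 or NP2810). The FMOD to LUM difference ran from -1.45 to -0.76, BGN to DCN from 0.22 to 0.52 and ASPN to DCN from -0.59 to -0.37 with each cow left out. The repeat with ACTA2 was not run, because ACTG2 and ACTA2 share 1 row. The cause of these changes was not tested. Depth limited OMD, EPYC and OPTC.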
